A study of Rattus norvegicus with 53 samples.

Results

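The RT1 region is the major histocompatibility complex of the rat. Here it was taken as every gene of chromosome 20 whose transcription start lay from 1500000 to 5500000 on the Rnor_6.0 assembly, which gave 294 of the 32576 genes measured. RNA was sequenced from 51 whole eyes of outbred Heterogeneous Stock (HS) rats, a population bred from inbred founder strains, with 1 eye per rat and the extraocular muscles removed. The study used these eyes to ask which genes vary in expression with genotype, and all 51 form 1 group. The study had a cohort of rats that underwent behavioral tests and self-administered nicotine, and a cohort of breeders that did not. Which cohort each of these eyes came from, and the sex and age of each rat, is not stated in the sources used here. The design therefore has no treated and control groups, and the comparisons below are between eyes and between genes.

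The genes of this region encode proteins that show peptides to T cells. Class I heavy chains are made by nearly all nucleated cells and present peptides from inside the cell to CD8 T cells. Class II molecules are pairs of an alpha and a beta chain, made mainly by dendritic cells, macrophages and B cells, and they present peptides taken up from outside to CD4 T cells. The eye is known as a site where immune responses are restrained and where class II positive cells are sparse. The region differs between rat strains in sequence and in the number of class I genes, and it also holds many genes with no role in immunity.

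Values are in CPM, the expected counts of an eye scaled to a total of 1000000. The totals per eye ran from 9109084 to 42146827 expected counts, so 3 counts made 0.0712 CPM in the deepest eye and 0.329 CPM in the shallowest. CPM is not divided by gene length, so levels were compared between eyes and not between genes. In every eye 64 of the 294 genes were at 0. Another 107 were above 0 somewhere but had a median under 1 CPM, and 123 reached a median of 1 CPM or more. Only 22 could be named. Their names came from the study's list of genes with a cis-eQTL, that is, genes whose expression went with nearby genotypes in these same eyes, so the named genes were chosen for variation between eyes and do not stand for the region. The other 272 are given by gene identifier or start position.

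The spread between eyes was measured as the SD of log2(CPM + 1). Among the 123 genes that reached 1 CPM the median SD was 0.42, with quartiles of 0.30 and 0.54, and among all 13844 such genes of the genome it was 0.37. An SD over 1 was found for 4 of the 123 genes, or 3.25%, where the share over all 13844 genes was 2.0%. These were LOC103690108, with an SD of 2.57, and 3 unnamed genes. The count depends on the pseudocount: with 0.1 in place of 1 it was 17 of the 123 genes, or 13.8%, against 7.99% of all genes.

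**Figure D1:**
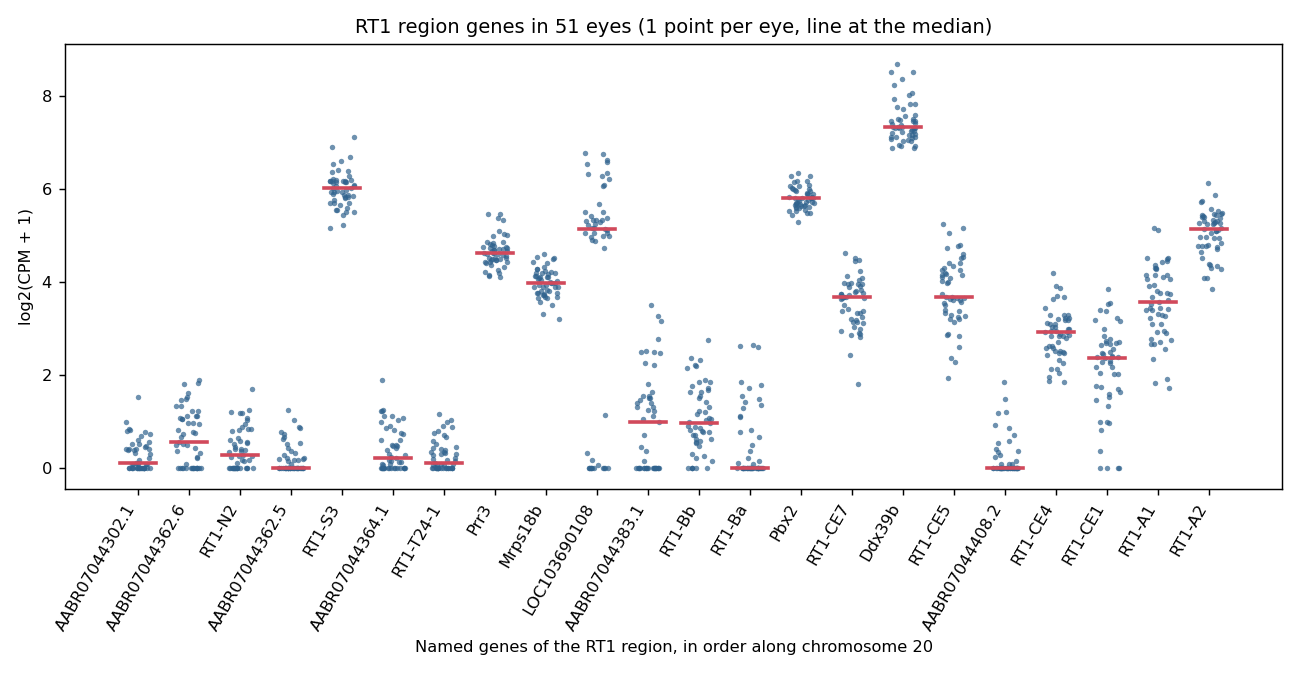
Levels of the 22 named RT1 region genes as log2(CPM + 1), with 1 point per eye for 51 eyes, a red line at the median and the genes in order along chromosome 20. RT1-S3, Prr3, Mrps18b, Pbx2 and Ddx39b form narrow columns, LOC103690108 falls into separate heights, and RT1-Ba lies at 0 in 29 eyes.

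Reads that match several genes are divided among them by the counting tool, which leaves expected counts that are not whole numbers. Of the 130 members with at least 5 values from 0.5 to 200 expected counts, 26, or 20%, had more than 50% of these values farther than 0.01 from a whole number. The share over all genes was 10.1%. With values up to 1000 counts it was 31 of 171 members, or 18.1%, against 8.69% of all genes. All values of this kind were non-whole for RT1-A1 and RT1-CE7, and 95.6%, 95.3% and 85.2% of them for RT1-CE4, RT1-CE1 and RT1-CE5. RT1-A2 lay mostly above this range, and 97.9% of its values up to 1000 were non-whole. The levels of these 6 class I genes are therefore uncertain one by one. In contrast, no value of RT1-Ba or RT1-Bb was non-whole, and none of the 25 values of RT1-S3 up to 1000 was. The higher values of RT1-S3 were not checked.

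The class II genes that could be named were RT1-Ba, the alpha chain, and RT1-Bb, the beta chain of the same molecule. RT1-Ba (start 4070721) was at 0 CPM in 29 of the 51 eyes, had a median of 0 and reached 5.29 CPM. In 33 eyes it had 3 counts or fewer. RT1-Bb (start 4039413) ran from 0 through a median of 0.976 to 5.72 CPM and was at 0 in 6 eyes. RT1-Ba was at 0 in all 6 of those eyes, and in 23 further eyes RT1-Bb was above 0 with RT1-Ba at 0. Zeros of RT1-Ba occurred at totals from 9109084 to 37869058, so deep libraries were among them. In whole eyes, fewer cells that make a gene and less RNA per cell cannot be told apart. A 0 here means that no read was counted for the gene on the Rnor_6.0 assembly. Whether sequence differences between rats kept reads from being counted was not tested.

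The promoters of RT1-Ba and RT1-Bb are shown because both carry the core of the Y box, a CCAAT element known from class II promoters. The sequences are from RefSeq on the GRCr8 assembly, run 5′ to 3′ from 250 bases before to 50 after the start, and have in capitals each ATTGG or its reverse complement. RT1-Ba lies at chr20:4576807-4577106 on the plus strand and RT1-Bb at chr20:4604069-4604368 on the minus strand.
RT1-Ba: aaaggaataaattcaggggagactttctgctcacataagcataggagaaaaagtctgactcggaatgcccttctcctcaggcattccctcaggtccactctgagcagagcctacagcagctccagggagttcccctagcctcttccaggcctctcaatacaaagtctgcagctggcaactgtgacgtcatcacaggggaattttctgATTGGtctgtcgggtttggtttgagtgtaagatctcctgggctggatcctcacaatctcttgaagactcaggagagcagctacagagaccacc
RT1-Bb: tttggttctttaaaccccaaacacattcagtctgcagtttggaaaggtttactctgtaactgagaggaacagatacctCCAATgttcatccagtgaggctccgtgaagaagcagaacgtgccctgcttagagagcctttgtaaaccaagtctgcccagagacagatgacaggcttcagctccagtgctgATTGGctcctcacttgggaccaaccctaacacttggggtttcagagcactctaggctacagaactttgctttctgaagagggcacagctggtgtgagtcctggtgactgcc
The core was found once in the RT1-Ba window and at 2 places in that of RT1-Bb. It is common, being present on either strand in 37.5% of all 33469 promoters of this length. Aligned end to end, the RT1-Ba and RT1-Bb promoters were identical at 49.9% of columns.

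To find which genes varied with RT1-Ba, the log2(CPM + 1) of each gene was fitted on that of RT1-Ba over the 51 eyes with limma, with Benjamini-Hochberg adjustment over all genes whose median reached 1 CPM. At an adjusted p under 0.05, 2 of 123 members rose with RT1-Ba, and 4 of 13844 genes were called in all, or 0.0289%. The member with the smallest p was ENSRNOG00000048951 (start 2707120), which has no name here. It ran from 0 through a median of 1.53 to 9.94 CPM. Its slope was 0.86 (SE 0.12) log2 units per log2 unit of RT1-Ba, with limma's adjusted p = 1.17e-05, and Pearson's r was 0.72 (rho 0.61). Among its values up to 1000 counts, 98.0% were non-whole. The second was ENSRNOG00000058784 (start 3199279, median 4.42 CPM), with a slope of 0.42 (SE 0.08), r = 0.62 and limma's adjusted p = 0.00579. Of its values up to 1000 counts 90.2% were non-whole. Both are named because they were called, after their values were seen. With inverse normal values neither was called (adjusted p = 0.141 and 0.407 in limma), and when the 2 eyes most distant from the RT1-Ba median were left out ENSRNOG00000048951 was called (0.000194) and ENSRNOG00000058784 was not (0.0703). Within the eyes that share a tag prefix (described below) r was 0.75 and 0.60 for the 39 eyes and 0.66 and 0.66 for the 12 others.

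RT1-Bb did not pass this test with its own partner chain. Its median is under 1 CPM, so it entered only the fit over all 20189 genes above 0, where its limma adjusted p was 0.479. Pearson's r between RT1-Ba and RT1-Bb was 0.45 (two-sided permutation test, p = 0.00102) and rho was 0.44 (p = 0.00133), and r was 0.34 when the 2 eyes most distant from the RT1-Ba median were left out. In the same fit AABR07044408.2, a gene with no known role that was at 0 in 33 eyes and reached 2.65 CPM, rose with RT1-Ba (limma's adjusted p = 2.47e-05, r = 0.71, rho = 0.51). That fit called 3 of 229 members and 7 genes in all, or 0.0347%. Both genes were above 0 in 12 eyes and both at 0 in 23.

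Ddx39b, an RNA helicase of mRNA splicing and export, had r = 0.50 with RT1-Ba and a limma adjusted p of 0.235. With 20 expression components as covariates, the number the study removed in its own model, Ddx39b passed (adjusted p = 3.7e-05, partial r = 0.80), and 3 members and 0.0433% of all genes were called. None of the 7 tested class I genes was called with RT1-Ba in either fit. For RT1-A1 r was 0.33 (permutation p = 0.0164) with an adjusted p of 0.666, and for RT1-A2 r was 0.00. Outside the region the only named gene called was LOC294154, farther along chromosome 20 (start 7397448), which ran from 1.71 to 354 CPM and fell as RT1-Ba rose (slope -0.70, SE 0.14, limma's adjusted p = 0.0244, r = -0.56, rho = -0.37). Among 688 named genes outside the region others with r far from 0 were RT1-CE10 (0.45), Eif4g1 (0.40) and Nmral1 (-0.38), with limma's adjusted p from 0.533 to 0.666.

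**Figure D2:**
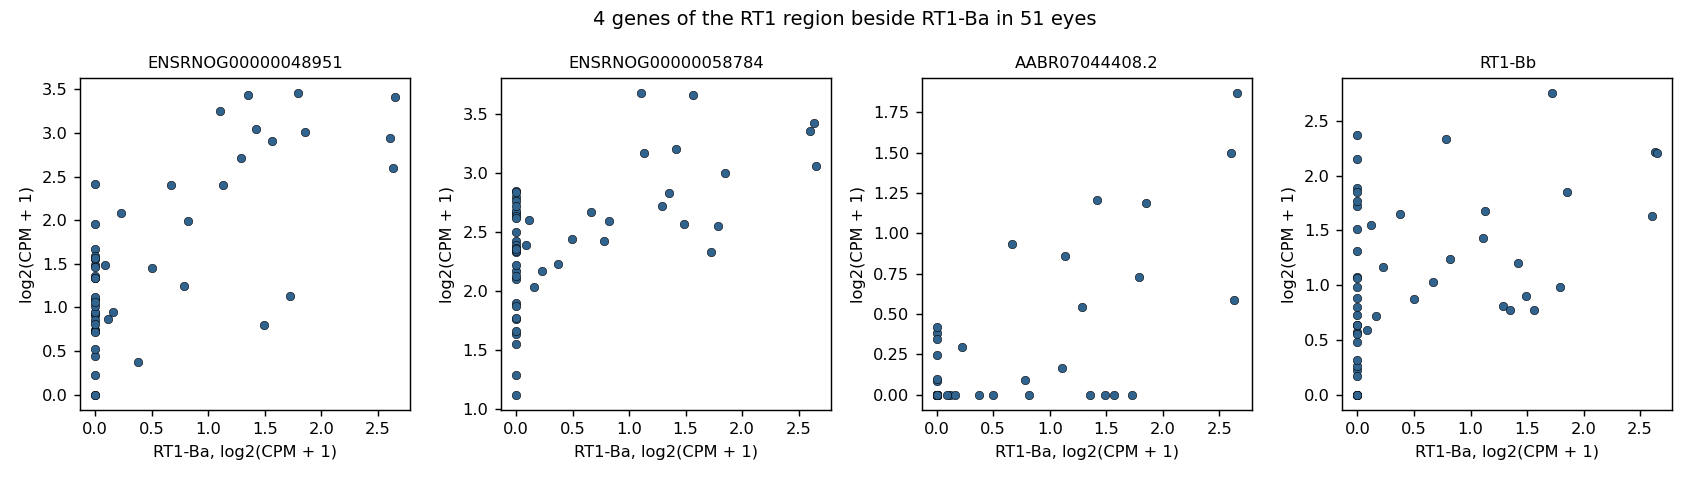
RT1-Ba on the horizontal axes against ENSRNOG00000048951, ENSRNOG00000058784, AABR07044408.2 and RT1-Bb on the vertical axes, all as log2(CPM + 1), with 1 point for each of 51 eyes. The 29 eyes with RT1-Ba at 0 stand in a column at the left of each panel and cover much of the range of RT1-Bb.

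The named class I genes were RT1-A1 and RT1-A2, the classical class I heavy chains, RT1-CE1, RT1-CE4, RT1-CE5 and RT1-CE7 of the C/E block, and the nonclassical RT1-S3, RT1-N2 and RT1-T24-1. RT1-A2 (start 5374985) ran from 13.5 through a median of 34.6 to 69.4 CPM, a 5.13-fold range. RT1-A1 (start 5351605), its neighbour, ran from 2.32 through 10.9 to 35.1 CPM, a 15.1-fold range. The SD was 0.79 log2 units for RT1-A1 and 0.49 for RT1-A2, and 95.2% and 76.0% of all tested genes had smaller SDs.

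RT1-CE5 (start 4896991) ran from 2.86 through 11.9 to 36.8 CPM. RT1-CE4 (start 4935887) ran from 2.60 through 6.65 to 17.3 CPM. RT1-CE7 (start 4774551) ran from 2.52 through 11.8 to 23.8 CPM. These genes were above 0 in every eye. RT1-CE1 (start 4943564) was different in that it was at 0 in 4 eyes, with a median of 4.19 and a highest value of 13.5 CPM. RT1-S3 (start 3176107) was among the steadier class I genes, from 34.8 through 63.9 to 138 CPM, with an SD of 0.38. RT1-N2 and RT1-T24-1 were near the floor, at 0 in 18 and 20 eyes, with medians of 0.218 and 0.0748 CPM and highest values of 2.24 and 1.25 CPM.

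The promoters of 4 class I genes that are compared below are shown with the letters GGGATTCCC, an NF-kB type site of the class I enhancer A, and the Y box core ATTGG in capitals, each on either strand. The motifs shared no base with each other. RefSeq places RT1-A1 at chr20:4906959-4907258 on the plus strand, RT1-A2 at chr20:4872621-4872920 on the plus strand, RT1-CE5 at chr20:3484041-3484340 on the minus strand and RT1-CE4 at chr20:3509107-3509406 on the minus strand of GRCr8.
RT1-A1: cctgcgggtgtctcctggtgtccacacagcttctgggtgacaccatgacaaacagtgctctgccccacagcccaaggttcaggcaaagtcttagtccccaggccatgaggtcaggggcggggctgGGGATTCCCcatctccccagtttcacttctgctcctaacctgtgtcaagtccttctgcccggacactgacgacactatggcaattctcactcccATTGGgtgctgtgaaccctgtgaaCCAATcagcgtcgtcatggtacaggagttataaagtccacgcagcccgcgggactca
RT1-A2: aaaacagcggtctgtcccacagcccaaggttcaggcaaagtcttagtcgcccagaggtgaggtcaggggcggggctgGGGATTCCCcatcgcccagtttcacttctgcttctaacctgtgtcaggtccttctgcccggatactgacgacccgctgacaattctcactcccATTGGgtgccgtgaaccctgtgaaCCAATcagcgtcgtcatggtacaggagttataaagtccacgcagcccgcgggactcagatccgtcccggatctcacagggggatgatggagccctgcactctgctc
RT1-CE5: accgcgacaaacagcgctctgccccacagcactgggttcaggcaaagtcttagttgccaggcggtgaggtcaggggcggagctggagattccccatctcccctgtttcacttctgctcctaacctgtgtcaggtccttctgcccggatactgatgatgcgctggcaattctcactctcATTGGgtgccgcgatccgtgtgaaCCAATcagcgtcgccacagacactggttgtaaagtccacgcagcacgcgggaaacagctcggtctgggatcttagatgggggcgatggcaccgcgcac
RT1-CE4: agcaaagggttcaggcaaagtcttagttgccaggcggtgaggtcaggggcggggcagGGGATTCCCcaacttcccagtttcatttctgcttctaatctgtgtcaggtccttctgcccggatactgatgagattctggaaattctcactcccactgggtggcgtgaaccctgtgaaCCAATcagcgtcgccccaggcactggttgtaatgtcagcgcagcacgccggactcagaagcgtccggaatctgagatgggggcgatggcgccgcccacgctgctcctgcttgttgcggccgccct
RefSeq held a promoter for 14 of the 22 named genes, among them 8 of the 9 class I genes. GGGATTCCC was present in 3 of these 8 (RT1-A1, RT1-A2 and RT1-CE4) and in 0.365% of all promoters. ATTGG was present in 7 of the 8, RT1-CE1 being the exception. A further motif, GAAANNGAA, the core of an interferon response element, was present in 9.71% of all promoters and, among these 8, in that of RT1-S3. Along the aligned promoters RT1-A2 and RT1-CE5 were identical at 80.5% of columns, RT1-A2 and RT1-CE4 at 72.8%, RT1-A1 and RT1-A2 at 67.2%, and RT1-A1 and RT1-CE4 at 53.9%. The 2 class II promoters were identical to these 4 at 49.3% to 52.2%. The windows are offset, with GGGATTCCC at -125 from the start in RT1-A1, -173 in RT1-A2 and -193 in RT1-CE4. Windows aligned end to end therefore cover partly different stretches, and the shares with RT1-A1 do not rank how alike these promoters are.

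With RT1-A1 as the reference gene, 3 of 122 members rose with it, and 7 of 13843 genes were called in all, or 0.0506%. All 3 members were class I genes. RT1-CE5 had a slope of 0.64 (SE 0.10) with limma's adjusted p = 0.000153, r = 0.68 and rho = 0.70. RT1-CE4 had a slope of 0.41 (SE 0.08) with an adjusted p of 0.0124 and r = 0.61. RT1-A2 had a slope of 0.36 (SE 0.07) with an adjusted p of 0.0188 and r = 0.58. In the 39 eyes of the common tag prefix r was 0.73, 0.64 and 0.75, and in the 12 others 0.46, 0.46 and 0.19. RT1-CE1 had r = 0.49 (permutation p = 0.00022) but an adjusted p of 0.133, and RT1-CE7 had r = 0.18 and RT1-S3 r = 0.28 with adjusted p of 0.822 and 0.59. With inverse normal values RT1-CE5 was called (limma's adjusted p = 0.0386) and RT1-CE4 (0.07) and RT1-A2 (0.0784) were not. The other 4 genes called with RT1-A1 lie on other chromosomes and have no name here. Over all genes above 0 the same 3 members were called, with 0.0297% of genes.

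With 20 expression components as covariates, which leaves 29 residual degrees of freedom, no gene was called with RT1-A1 in limma. Of the 13843 genes 705, or 5.09%, had an unadjusted p under 0.05, and of the 122 members 24, or 19.7%. No test was made of this difference. The adjusted p of RT1-CE5, RT1-CE4 and RT1-A2 was then 0.937, and their partial r was 0.54, 0.52 and 0.45. The named genes outside the region with r farthest from 0 were Vsig10l (0.49), Trappc6a (0.47), Amz2 (0.46), Brk1 (0.44) and Nmu (0.43), with limma's adjusted p from 0.146 to 0.271.

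**Figure D3:**
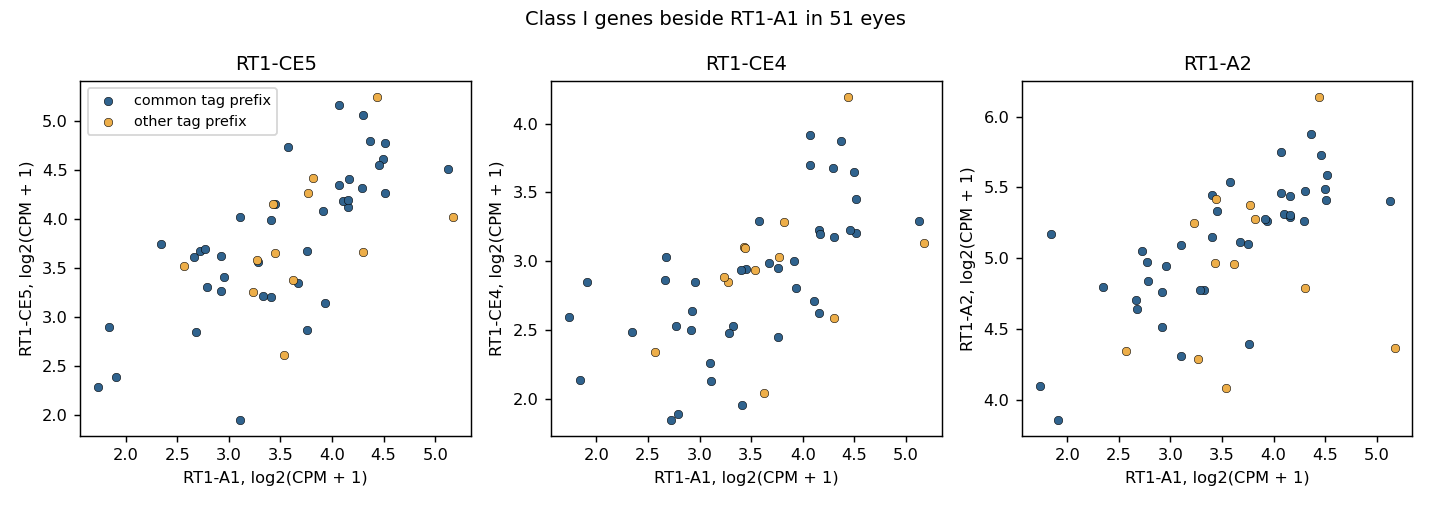
RT1-A1 on the horizontal axes against RT1-CE5, RT1-CE4 and RT1-A2 on the vertical axes as log2(CPM + 1), with 1 point per eye, blue for the 39 eyes of the common tag prefix and yellow for the 12 others. Each gene was higher in eyes with more RT1-A1, with r = 0.68, 0.61 and 0.58 over the 51 eyes.

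These relations rest on genes that share reads, and the part of divided reads in them was not tested. The sum of RT1-CE1, RT1-CE4, RT1-CE5, RT1-A1 and RT1-A2 ran from 26.7 through 65.4 to 154 CPM, a 5.77-fold range. Reads shared with class I genes left out of this sum, such as RT1-CE7, are not covered by it. Over the 9 named class I genes the sum ran from 87.1 through 142 to 298 CPM, a 3.42-fold range.

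Pairs of the 9 named class I genes had a Pearson's r above 0 in all 36 cases, from 0.06 to 0.81 with a median of 0.45. With 20 expression components removed, r ran from 0.10 to 0.78, with a median of 0.46. For comparison, the median r was 0.17 over the 7503 pairs of tested members and 0.03 over all pairs of tested genes, and 6.65% of those pairs reached 0.5 against 33.3% of the 36. These values are descriptions over the same 51 libraries, without a test. The 9 genes were named because they had a cis-eQTL in these same eyes, and they lie in 1 region. They also include RT1-N2 and RT1-T24-1, whose medians were under 1 CPM, while the other pairs hold only tested genes. The shares are therefore not like for like. The highest were RT1-CE5 with RT1-A2 (0.81) and RT1-CE1 with RT1-A2 (0.69), all genes with mostly non-whole counts. RT1-S3, whose 25 values up to 1000 counts were whole, had 0.65 with RT1-CE7, 0.59 with RT1-T24-1 and 0.54 with RT1-A2. Of these partners, RT1-CE7 and RT1-A2 had mostly non-whole counts, and for RT1-T24-1 45.2% of values were non-whole.

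**Figure D4:**
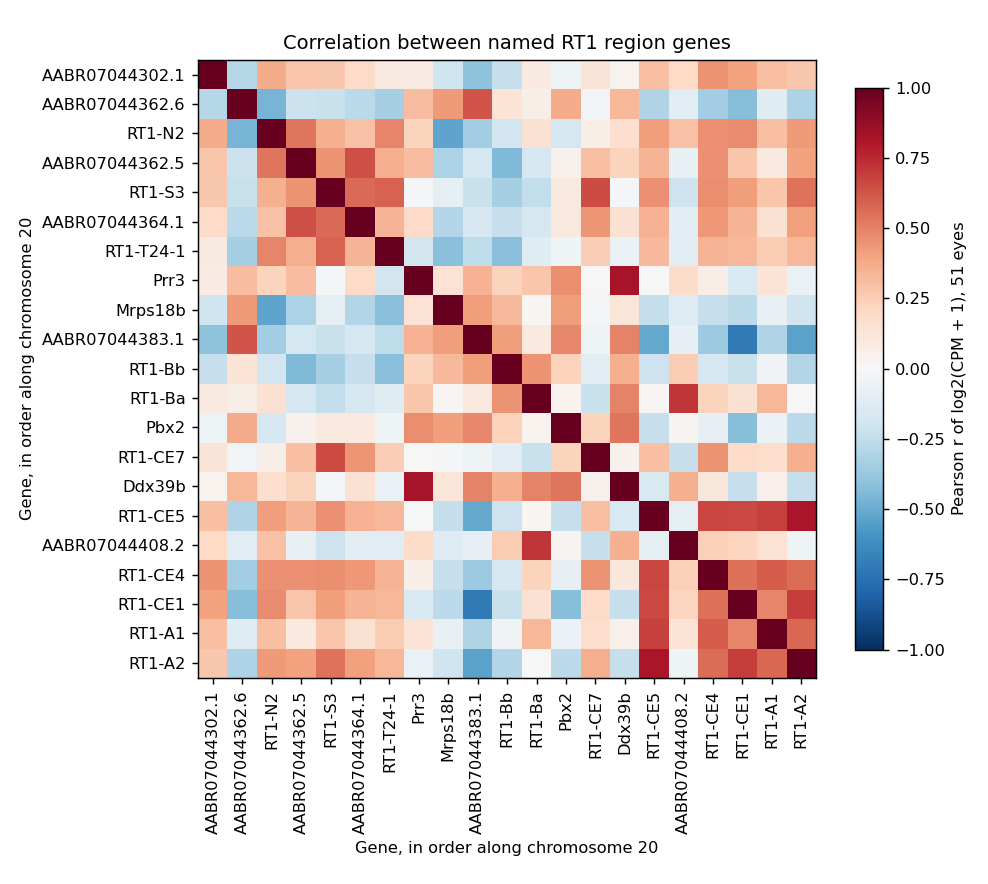
Pearson's r of log2(CPM + 1) over 51 eyes between 21 named RT1 region genes in order along chromosome 20, red above 0 and blue below. RT1-CE4, RT1-CE1, RT1-A1 and RT1-A2 form a red block in the lower right corner, and AABR07044383.1 is blue against RT1-CE1 (r = -0.70) and RT1-A2 (r = -0.54).

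AABR07044383.1, an Ensembl gene with no known role that starts at 3796275, ran the other way. It was at 0 in 21 eyes, had a median of 0.985 and reached 10.5 CPM, and 56.7% of its values were non-whole. Its r with the 9 class I genes was below 0 in all 9 cases, from -0.70 for RT1-CE1 to -0.05, with a median of -0.34. The 4 eyes at 0 for RT1-CE1 had AABR07044383.1 at 3.7, 4.65, 5.89 and 7.93 CPM, all above its median. AABR07044362.6, likewise without a known role, had r = 0.63 with AABR07044383.1 and was below 0 against all 9 class I genes, from -0.46 to -0.03. The class II gene RT1-Bb was also below 0 against all 9, from -0.42 to -0.04, and so was LOC103690108, described below. For RT1-Ba r was above 0 in 6 of the 9 cases, from -0.25 to 0.33. The r of AABR07044383.1 spans the sets of eyes given below for LOC103690108, and both genes were at 0 in 10 eyes. The signs given for LOC103690108 span the same sets. Within the middle set of 25 eyes its r was 0.29 with RT1-CE1, 0.38 with RT1-CE5 and 0.47 with RT1-A2. In the highest set of 11 eyes these were -0.22, 0.11 and 0.12. The others of the 9 class I genes were not examined within the sets.

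LOC103690108 (start 3794027), an unclassified gene next to AABR07044383.1, had the largest SD of log2(CPM + 1) among the 123 tested members. It ran from 0 through a median of 34.3 to 108 CPM, and 99.9% of all tested genes had a smaller SD. Of its 29 values from 0.5 to 1000 counts 34.5% were non-whole, so part of its reads were shared with other genes. Its values fell into 3 separate sets, divided by the 2 widest gaps between neighbouring eyes. In 15 eyes it lay from 0 to 1.22 CPM, with 11 of them at 0. In 25 eyes it lay from 25.5 to 50 CPM, and in 11 eyes from 66.3 to 108 CPM. The division was made after the values were seen and the sets are not groups of the study. Eyes with and without the common tag prefix occurred in each set, with 11 and 4, 20 and 5, and 8 and 3 eyes. The totals of the 15 lowest eyes ran from 11815094 to 37869058, so deep libraries were among them.

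The zeros or low values of the genes given here fell at particular levels of LOC103690108. These genes were picked after their values were seen, and the share of all genes with such a pattern was not counted. RT1-Ba and AABR07044362.5 were each at 0 in 29 eyes, so how unusual their patterns are is not known. RT1-Ba was above 0 in 22 eyes, and in these LOC103690108 lay between 30.6 and 107 CPM, so that no eye of the lowest set had a count for RT1-Ba. RT1-CE1 was at 0 in 4 eyes, and in these LOC103690108 was at 76.6, 79.6, 95.0 and 108 CPM, all in the highest set. Of the RT1-CE1 values from 0.5 to 200 counts 95.3% were non-whole. Whether its zeros depend on how shared reads were divided was not tested. AABR07044362.5, a gene with no known role that was above 0 in 22 eyes, had no count where LOC103690108 exceeded 44.7 CPM. Where LOC103690108 was at 0, RT1-CE10 did not exceed 1.66 CPM, while over all eyes it reached 10.9 CPM. RT1-CE10 is a class I gene that the Rnor_6.0 assembly places outside the region, at position 157861 of chromosome 20. It had a median of 3.48 CPM, was at 0 in 3 eyes, and 12.8% of its values were non-whole.

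**Figure D5:**
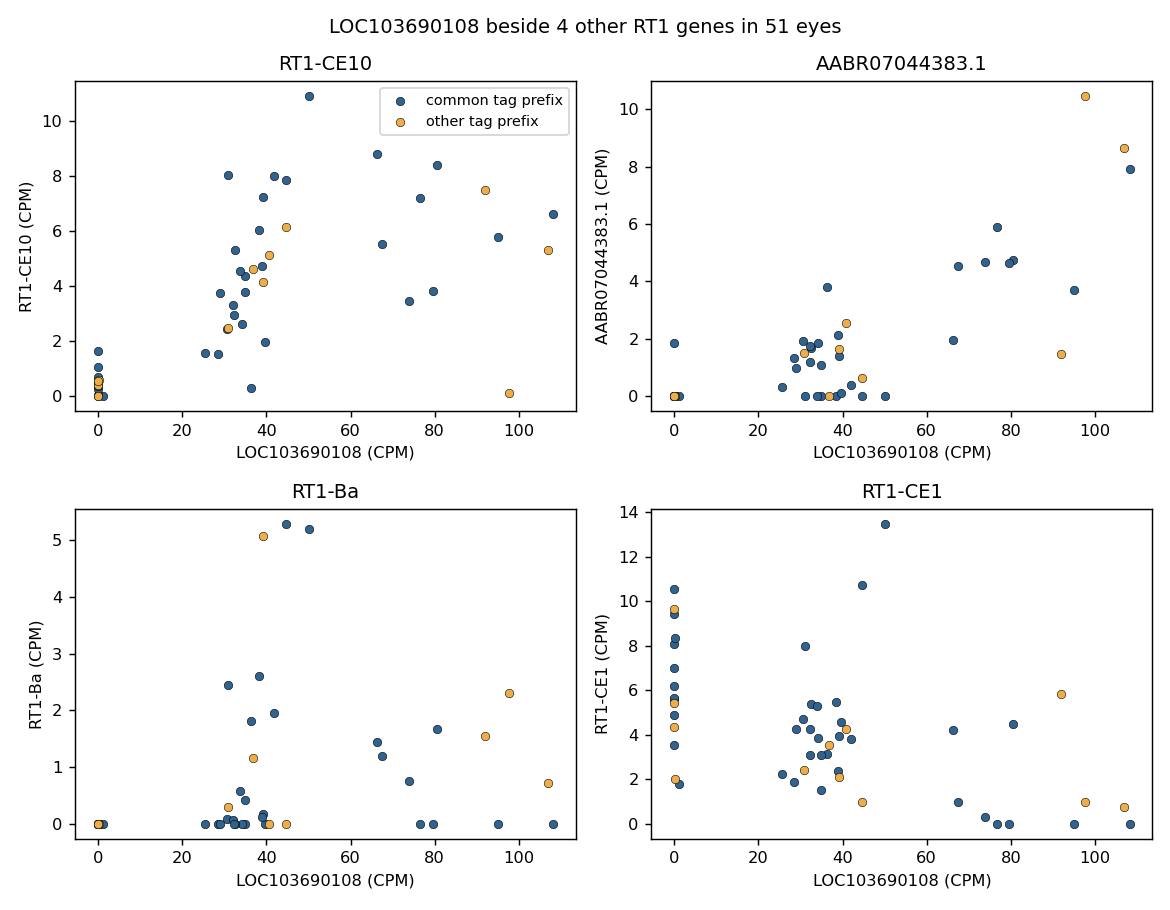
LOC103690108 in CPM on the horizontal axes against RT1-CE10, AABR07044383.1, RT1-Ba and RT1-CE1 in CPM on the vertical axes, with 1 point per eye, blue for the 39 eyes of the common tag prefix and yellow for the 12 others. The eyes stand in 3 separate columns, RT1-Ba has no count in the left one, and the zeros of RT1-CE1 lie in the right one.

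In the limma fit on LOC103690108, 0 of 122 members were called and 1 of 13843 genes, or 0.00722%, namely RT1-CE10 with a slope of 0.34 (SE 0.04) and limma's adjusted p = 5.37e-09. Of all genes 555, or 4.01%, had an unadjusted p under 0.05, and of the members 24, or 19.7%. The fit over all genes above 0 added AABR07044383.1 (adjusted p = 0.00136) and RT1-Bb (0.0499), making 2 of 229 members and 0.0149% of genes. With 20 expression components, Ddx39b (0.0158) was called among the members, with 0.0217% of genes, and the others were RT1-CE10 and Itpr3, an intracellular calcium channel that lies outside the region. Each of these slopes spans the 3 sets of eyes, so a single r over all 51 eyes is not given.

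Within the sets, 16 relations were tested over the 25 middle and the 11 highest eyes, and 1 passed a Benjamini-Hochberg adjusted p of 0.05. This was RT1-CE10 in the 25 middle eyes, with r = 0.57 (permutation test, p = 0.00308, adjusted p = 0.0493) and rho = 0.61, and r was 0.42 when the 2 most distant eyes were left out. In the 11 highest eyes r for RT1-CE10 was -0.25 (permutation p = 0.522). The sets were cut from the values of LOC103690108, and RT1-CE10 had already been called with it over the same eyes. The adjustment over 16 relations does not cover that choice, so this result is no separate support for the relation. For AABR07044383.1 r was -0.20 in the middle set (p = 0.33) and 0.49 in the highest (p = 0.133, permutation tests), and for RT1-Bb it was 0.33 and 0.40. RT1-A2 and RT1-Ba had r = 0.47 and 0.52 in the middle set, with adjusted permutation p of 0.0949 and 0.0616. In the lowest set, with 11 of 15 eyes at 0, no r was computed.

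Of the named genes with a known role outside antigen presentation, Pbx2, Mrps18b, Prr3 and Ddx39b, each was above 0 in every eye. Pbx2, a homeobox transcription factor (start 4357733), ran from 38.4 through 54.7 to 80.4 CPM, and 12.0% of all tested genes had a smaller SD. Mrps18b, a subunit of the mitochondrial ribosome (start 3344870), ran from 8.28 through 14.9 to 23.2 CPM. Prr3, a proline-rich protein (start 3299730), ran from 16.4 through 23.9 to 43.4 CPM. Ddx39b (start 4818568) ran from 117 through 160.0 to 411 CPM, and its upper values were drawn out. Prr3 and Ddx39b had r = 0.82 over the 51 eyes, the highest of any pair of named members other than those with LOC103690108, and r was 0.45 with 20 components removed. None of Prr3, Mrps18b and Pbx2 was called with any of the 3 reference genes in the fits given above.

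The remaining named genes were low and absent from many eyes. AABR07044302.1 was at 0 in 20 eyes and reached 1.88 CPM, AABR07044362.6 was at 0 in 16 and reached 2.72 CPM, AABR07044364.1 was at 0 in 18 and reached 2.73 CPM, and AABR07044362.5 was at 0 in 29 and reached 1.37 CPM. AABR07044302.1, AABR07044364.1 and AABR07044362.5 had 3 counts or fewer in 29, 26 and 37 eyes, and AABR07044362.6 in 18. RT1-N2 and RT1-T24-1 were both at 0 in 14 eyes.

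Among the unnamed members the 5 with the highest medians started at 5155293 (from 350 to 1360 CPM), 3422461, 5441876, 1984863 and 3552929, and the SDs of these 5 lay between 0.15 and 0.43. The 5 unnamed members with the largest SDs started at 4543069, 5244386, 3935529, 5212624 and 2707120, with SDs from 0.95 to 1.13. All 5 were at 0 in some eyes, from 2 to 8, and in each of them 85.4% or more of the values up to 1000 counts were non-whole.

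Genes that neighbour each other were also correlated. The median r of 122 neighbouring pairs of tested members was 0.25, against 0.14 for 13807 neighbouring pairs over all chromosomes, and 16.4% against 12.6% of pairs reached 0.5. No test was made of this difference.

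The immune genes of other chromosomes that could be named were examined beside the region. Of 29 genes of antigen presentation and the interferon response, 4 had names (Ifit1, Ifitm3, Ifi27 and Oasl2, all induced by interferon). Of 21 cell type markers, 7 had names, among them RT1-Ba and RT1-Bb themselves, Cd68 and Cd14 of myeloid cells, the leukocyte receptor Lilrb3a, Fcrl1 of B cells and Hbb, the beta-globin of red cells. None of these 9 genes outside the region was called with RT1-Ba, RT1-A1 or LOC103690108, the smallest adjusted p being 0.463 over all genes above 0. With RT1-Ba r ran from -0.13 for Ifi27 to 0.24 for Ifit1, and Cd68, which ran from 0 to 15.5 CPM, had r = 0.23. The largest was Ifi27 with RT1-A1 (r = 0.38, permutation p = 0.0051, limma's adjusted p = 0.4). The defining markers Ptprc, Cd74 and Cd3e could not be named, so the share of immune cells was not measured.

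Apart from corrected names, the first part of the tag is the only label that divides the eyes. It is shared by 39 eyes, while the 12 others carry several different ones and were pooled. What it stands for is not said in the sources used here. Between the 39 and the 12 eyes, 0 of 123 members passed limma's adjusted p of 0.05, where 35 of 13844 genes did, or 0.253%. With median-of-ratios scaling 6 genes passed, and with no filter on low values 11, again with 0 members. An unadjusted p under 0.05 was found for 6 members, or 4.88%, and for 16.6% of all genes, and with median-of-ratios scaling for 12 members, or 9.76%, and 16.5% of all genes. The smallest adjusted p of a member was 0.11. RT1-A1 had a median of 10.9 CPM in both, and RT1-A2 medians of 35 and 30.2 CPM with an adjusted p of 0.687. Ddx39b had medians of 158 and 186 CPM with an unadjusted p of 0.04 and an adjusted p of 0.268.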

How the data were processed

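Whole eyes of 53 HS rats were sequenced (polyA RNA, paired-end reads), and 51 are analysed here. The other 2, removed by the authors, are not analysed here. Per the authors, reads were aligned to Rnor_6.0 with STAR in 2 passes, sample identity was checked against DNA genotypes using GATK, and genes were quantified with RSEM. The sources used here name no versions or annotation. The deposited values are log2 of the expected count plus 1, as read from the values.

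The log2 was undone, and counts were scaled to 1000000 per eye (CPM) and taken as log2(CPM + 1). The floor of 3 counts covers counting error only. Names were matched by start position. The members, the named-gene rule (all members with names, and unnamed ones with the 5 highest medians or SDs) and the gene lists were chosen with earlier results of these data known. A gene that the rule picked outside the region is not reported here. Slopes on RT1-Ba, RT1-A1 and LOC103690108 and the tag prefix contrast were fitted using limma 3.58.1 (R 4.3.3), with a variance trend, over genes whose median reached 1 CPM, and adjusted by Benjamini-Hochberg. The fit was tested on simulated data. Correlations have two-sided p from 100000 permutations, of which 1e-05 is the smallest possible. Alternatives used 20 expression components, the tag prefix, median-of-ratios scaling, a pseudocount of 0.1, inverse normal values, no filter and 2 fewer eyes. Promoters were aligned with Biopython 1.88, and matplotlib 3.10.9, pandas 2.3.3, scipy 1.17.1 and numpy 2.4.6 were used under Python 3.11.15. Each eye is from a different rat.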

Additional observations from a re-analysis of the deposited data

How the results depend on the processing

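With inverse normal values 0 members and 0 genes were called with RT1-Ba, 1 and 1 with RT1-A1, and 0 genes with LOC103690108. With 20 expression components, from all genes or without chromosome 20, 0 members and 0 genes were called with RT1-A1. With the same components 1 member and 3 genes were called with LOC103690108, and 2 and 4 when chromosome 20 was left out of them. Without a filter on low values, 7 genes were called with RT1-Ba, 2 members and 3 genes with LOC103690108, and 11 genes between tag prefixes. Without the 2 eyes farthest from the median, 1 member and 2 genes were called with RT1-Ba, 16 genes with RT1-A1, and 1 member and 2 genes with LOC103690108. Median-of-ratios scaling gave 4 genes with RT1-A1 and 6 between tag prefixes. A pseudocount of 0.1 gave 2 genes with RT1-Ba and raised the members with an SD over 1 to 17. The causes were not tested, except that leaving out the filter tests more genes.

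Members with mostly non-whole counts numbered 26 at each of 3 tolerances and 18 with values up to 50 counts, and values up to 1000 counts, chosen after seeing the data, gave 31. A window 1 Mb wider on each side held 373 genes. Of 15 relations, the direction of r and its side of p = 0.05 held with 20 components, the tag prefix, inverse normal values or 2 eyes left out, except for RT1-A1 with RT1-Ba (r = 0.16) and RT1-CE1 with RT1-A1 (r = 0.19), both with 20 components. Within the sets of LOC103690108, RT1-CE10 turned to r = -0.25 in the highest set, AABR07044383.1 to -0.20 in the middle set, and RT1-CE5 to 0.38 and 0.11. No paired analysis was possible because the eyes form 1 group and their labels carry no replicate numbers shared between groups.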
